A study of Mus musculus with 6 samples.

Results

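Expression of 36 genes for histone demethylases outside the KDM7 family, related Jumonji proteins and the methyltransferases of histone H3 lysine 9 (H3K9), histone H4 lysine 20 (H4K20) and, in the NSD family, H3 lysine 36 (H3K36) was compared between hippocampus of Phf8 knockout (KO) and wild-type (WT) mice. The genes were chosen by name, as each probe set whose single gene symbol is on the list, and 97 of the 45037 probe sets on the array belong to 35 of the 36 genes. No probe set with a single symbol matched Suv39h1. The 3 KO samples came from Phf8-/Y males, hemizygous for an X-linked allele in which EIIa-Cre had removed the exons encoding the JmjC demethylase domain, and the 3 WT samples came from their male WT littermates. The labels give a C57BL/6 background and an age of 10 weeks for both groups and name no treatment, and by the methods the allele came from stem cells of another strain and was crossed into C57BL/6 J over several generations. EIIa-Cre acts in the early embryo, so the deletion is not limited to neurons or to the hippocampus. Each sample was hybridised to 1 Affymetrix mouse array, and the number of mice behind an array is not clear from the methods, so the p-values measure the spread between these samples.

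Methyl groups on histone lysines are added by methyltransferases, read by proteins that bind the methylated lysine, and removed by demethylases. Methylation of H3K9 is known for silent chromatin, and methylation of H4K20 for chromatin compaction and the cell cycle. PHF8, a Jumonji protein, removes methyl groups from H3K9 and H4K20, so the other enzymes that write or erase these marks act on the same substrates. Mutations of several of these genes, among them EHMT1, KMT5B and NSD1, cause intellectual disability in humans.

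Setdb2 and Suv39h2, which encode H3K9 methyltransferases, had a lower signal on each KO array than on each WT array on their brightest probe sets. Of all genes, 7.13% were lower in that way. Neither gene passed the test between KO and WT described below, and on a second Suv39h2 probe set the groups overlapped. Both genes were among the members that RefSeq promoter sequences cover. The 250 bases before the start of each are printed as the promoters found in that table for members whose groups did not overlap. CG dinucleotides are marked because Kdm2a and Kdm2b bind unmethylated CG-rich DNA through a CXXC zinc finger. Each is given 5′ to 3′ on the minus strand of GRCm38.p6, with CG in capitals, at chr14:59440881-59441130 for Setdb2 and chr2:3474987-3475236 for Suv39h2.
Setdb2: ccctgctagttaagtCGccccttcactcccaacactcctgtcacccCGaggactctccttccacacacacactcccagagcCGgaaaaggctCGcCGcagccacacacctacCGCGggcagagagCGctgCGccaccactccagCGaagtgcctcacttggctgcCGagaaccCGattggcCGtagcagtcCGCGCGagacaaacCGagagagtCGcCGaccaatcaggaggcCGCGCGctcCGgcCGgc
Suv39h2: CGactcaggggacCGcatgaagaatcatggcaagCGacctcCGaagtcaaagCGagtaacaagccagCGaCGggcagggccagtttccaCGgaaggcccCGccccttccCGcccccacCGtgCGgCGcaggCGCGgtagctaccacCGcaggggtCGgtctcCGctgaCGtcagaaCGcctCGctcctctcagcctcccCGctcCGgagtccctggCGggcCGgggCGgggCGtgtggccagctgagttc
The Setdb2 sequence holds 24 CG dinucleotides and the Suv39h2 sequence 27, and a CG reads the same on both strands. Of 32851 RefSeq mouse promoters cut to the same length, 11.98% hold at least as many as Setdb2 and 8.56% at least as many as Suv39h2, and the median promoter holds 6. The 39 promoters found for 26 of the 36 genes held 0 to 40 with a median of 18, and 37 of them held at least the median of all promoters. Both printed promoters were above the median of the 39, and their rank among them was not computed. These counts describe the sequence, and no binding or methylation was measured here.

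No demethylase or methyltransferase gene passed the test between KO and WT hippocampus. Values are log2 MAS5 signals, so a difference of 1 is a doubling, and each gene is represented by its brightest probe set above a filter on dim signals. Of the 36 genes, 34 had such a probe set and were tested within a limma fit over 12903 genes. Of these, 14 had a higher and 20 a lower mean in KO. Their differences ran from -0.62 to 0.49 with standard errors of 0.10 to 0.32, and their adjusted p-values were between 0.638 and 0.982. Over all genes 8 passed an adjusted p of 0.05 (0.062%), all of them lower in KO. At an unadjusted p under 0.05 there was 1 member, Nsd3 (2.94% of 34), against 7.48% of all genes.

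The KO and WT arrays did not overlap for 5 of the 34 members (14.7%), against 16.7% of all genes. Hr and Nsd2 were higher, and Setdb2, Suv39h2 and Nsd3 were lower, on each KO array than on each WT array, where 9.56% of all genes were higher and 7.13% lower in that way. Suv39h2, lower in KO, was the single member with a mean difference of at least 1.5-fold, a size reached by 6.18% of all genes and, for lower genes, by 2.03%, and no member reached it without WT replicate 3 or without KO replicate 3. The median size of the difference, without regard to sign, was 0.14 for the members and 0.16 for all genes, and the median signed difference was -0.06 and 0.01. The 95% interval of the difference lay within 1.5-fold in both directions for 16 of the 34 members (47.1%) and for 46.8% of all genes. For the other 18 members a change of that size was not excluded by the interval.

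**Figure D1:**
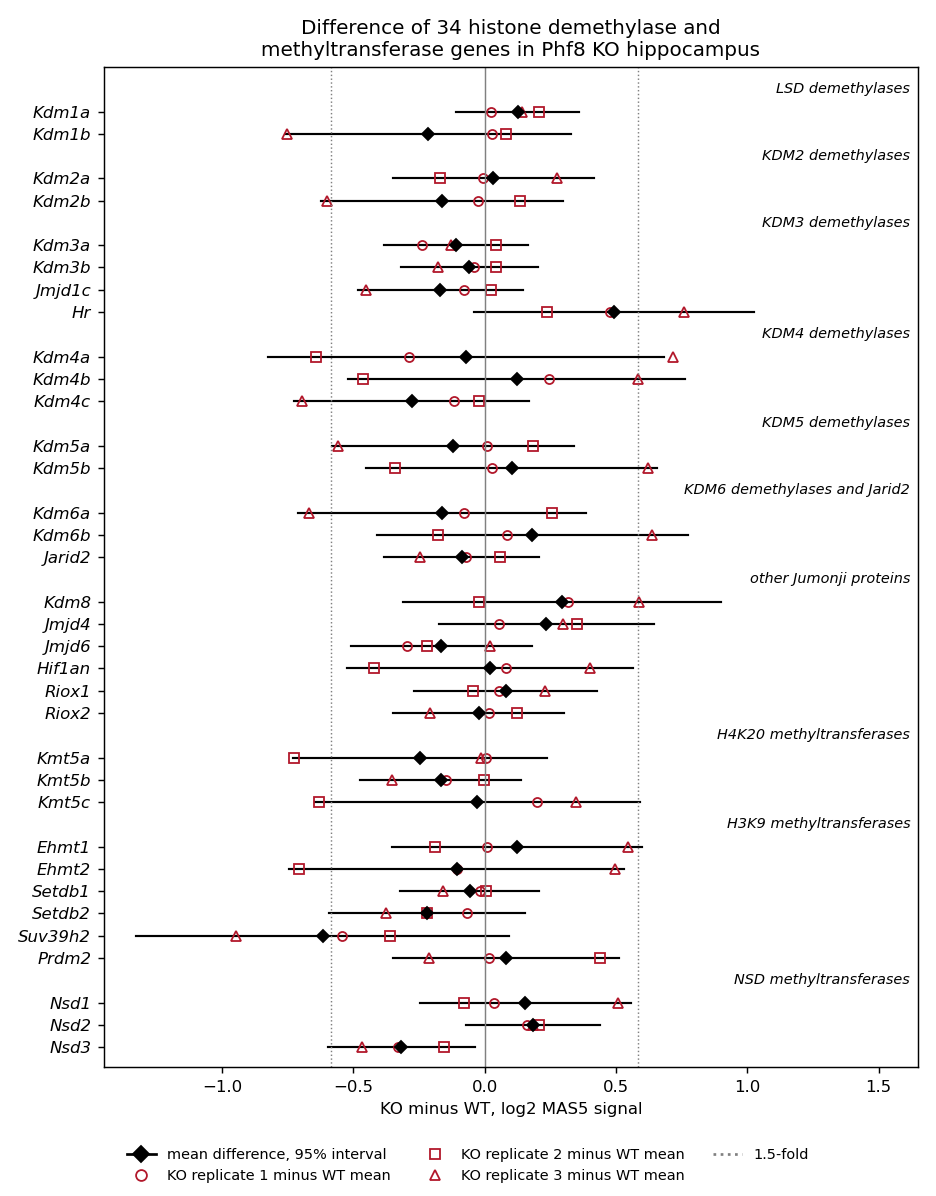
KO minus WT difference in log2 MAS5 signal (x axis) of the 34 tested genes, grouped by role. Diamonds and lines are the mean difference with its 95% interval from limma, open symbols are the 3 KO arrays relative to the WT mean, and dotted lines mark 1.5-fold. Only Suv39h2 has a mean difference past 1.5-fold, and only the interval of Nsd3 does not reach 0.

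The targeted gene was low on each KO array. The bright probe set of Phf8 had log2 signals of 8.23, 8.55 and 7.99 in KO and 9.90, 9.66 and 9.73 in WT, a difference of -1.51 (limma over all kept probe sets, adjusted p = 0.124). KO replicate 3 stood apart, with correlations of 0.925 to 0.940 to the other arrays across genes, against 0.976 to 0.987 among the other 5. The 11 thalamus markers, of which 11 were tested and 0 passed, had a median 0.19, 0.12 and 2.45 above the WT mean in KO replicates 1, 2 and 3, and their summed signal (log2) was 12.7 to 15.2 in KO and 12.4 to 12.5 in WT. Slc17a7, which marks excitatory neurons, had 9.78, 9.29 and 7.99 in KO and 10.04, 9.80 and 9.75 in WT. Prox1 of dentate granule cells had 8.98, 8.73 and 8.81 in KO and 9.31, 9.22 and 8.82 in WT. Both were picked from longer lists. The difference of Slc17a7, -0.84, was the lowest of the 8 neuron markers. These 8 (2 higher, 6 lower in KO) had medians of -0.08, -0.09 and -0.27 relative to WT in KO replicates 1, 2 and 3, and 0 were called. The 5 tested CA1 markers (2 higher, 3 lower in KO) had medians of 0.05, 0.01 and -0.35 relative to WT in KO replicates 1, 2 and 3. The 7 dentate granule markers (1 higher, 6 lower) had medians of -0.18, -0.16 and -0.50, and 0 of either list were called. Of 4 tested erythrocyte markers 2 were called, Hbb-b2 and Alas2, and the median of the 4 was -3.38, -3.95 and -3.55 relative to WT in KO replicates 1, 2 and 3. The 5 ependyma markers all had higher means in KO, with medians of 0.72, 0.38 and 1.40 on these arrays, and 0 were called. In bulk tissue, fewer cells of a type and less RNA in each cell cannot be told apart. The part of these markers in the values that follow was not tested, and that of KO replicate 3 only by leaving it out.

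KO replicate 3 also lay farthest from WT for most members. It was the array farthest from the WT mean for 24 of the 34 members and for 60.7% of all genes. For 28 members (82.4%) it lay outside the range of the other 5 arrays, above it for 13 and below it for 15, against 69.2% of all genes. KO replicates 2 and 3 were on opposite sides of the WT mean for 24 members (70.6%), against 52.1% of all genes. The median distance from the WT mean over the members was 0.07, 0.19 and 0.43 in KO replicates 1, 2 and 3, and over all genes it was 0.14, 0.19 and 0.35. Without KO replicate 3, the mean difference changed its sign for 13 members (38.2%), against 25.9% of all genes. In that fit 3 members had an unadjusted p under 0.05 (8.82%, against 13.9% of all genes), and 0 members passed, against 53 of all genes (0.411%).

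**Figure D2:**
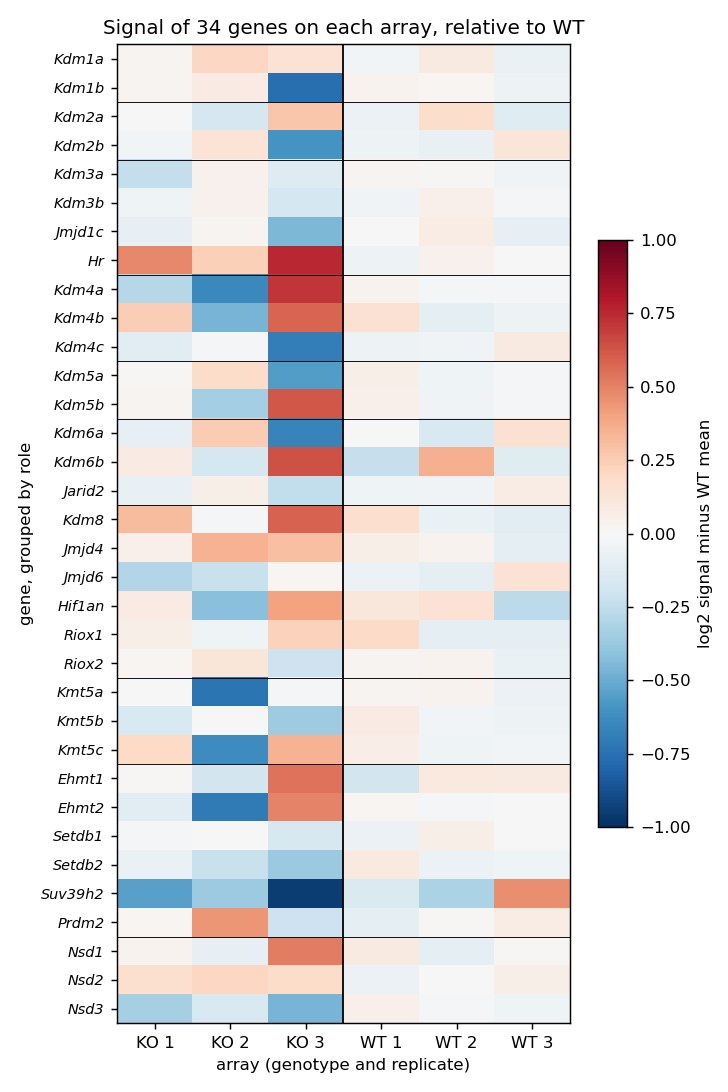
Log2 signal minus the WT mean (colour, blue lower and red higher) of the 34 tested genes (rows, grouped by role) on the 3 KO and 3 WT arrays (columns). The KO replicate 3 column holds the strongest colours in both directions, from -0.95 for Suv39h2 to 0.76 for Hr.

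Kdm4a, a demethylase of trimethylated H3K9 and H3K36, is an example of opposed KO arrays that was picked after its values were seen. It had 8.33, 7.97 and 9.34 in KO and 8.65, 8.60 and 8.60 in WT. KO replicates 1 and 2 were below all WT arrays and KO replicate 3 was above them, and the mean difference of -0.07 became -0.47 without KO replicate 3 (unadjusted p = 0.0111 from limma). Ehmt2, which encodes G9a, the partner of GLP in mono- and dimethylation of H3K9, had 10.45, 9.85 and 11.05 in KO and 10.57, 10.54 and 10.55 in WT. Its WT arrays were close together while its KO arrays lay on both sides of them. The difference of Ehmt2 was -0.11 (standard error 0.27, adjusted p = 0.924), -0.41 without KO replicate 3 (unadjusted p = 0.0283 from limma) and 0.19 without KO replicate 2.

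The 3 writers of H4K20 methylation all had a lower mean in KO on their brightest probe set, though not on the same arrays, and none passed. Kmt5a adds the first methyl group to H4K20, and Kmt5b and Kmt5c add the further ones. The brightest Kmt5a probe set, 1426406_at, had 10.00, 9.26 and 9.98 in KO and 10.02, 10.02 and 9.93 in WT. Only KO replicate 2 was low there, and the difference of -0.24 (standard error 0.21, adjusted p = 0.760) was -0.00 without it. The other kept Kmt5a probe set, 1460687_at, had 9.53, 9.21 and 9.001 in KO and 9.68, 9.72 and 9.62 in WT. On that probe set each KO array was below each WT array, by -0.43 on average (standard error 0.16, adjusted p = 0.782 and unadjusted p = 0.0347 in limma over 27408 probe sets, of which 6.18% had an unadjusted p under 0.05). Kmt5b differed by -0.17, and 1 of its 4 kept probe sets, 1451817_at, was higher in KO by 0.15. Kmt5c had 8.04, 7.21 and 8.19 in KO and 7.91, 7.80 and 7.81 in WT, a difference of -0.03. Only KO replicate 2 was low for Kmt5c, and KO replicates 1 and 3 were above all WT arrays. The median of the 3 genes was 0.01, -0.63 and -0.01 relative to WT in KO replicates 1, 2 and 3.

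Of the 7 writers of H3K9 methylation, 6 were tested, 2 of them higher and 4 lower in KO, with a median difference of -0.08 and adjusted p-values of 0.673 to 0.924. Suv39h2, which trimethylates H3K9 in heterochromatin, had 6.18, 6.36 and 5.78 in KO and 6.58, 6.41 and 7.19 in WT. All KO arrays were below all WT arrays, while the highest KO and the lowest WT value were close, and WT replicate 3 was the highest array. The KO signals were near the filter levels of 5.73 to 6.05, and KO replicate 3 was below its own level of 6.04. The difference was -0.62 (standard error 0.30, 95% interval -1.33 to 0.09, adjusted p = 0.673), and it was -0.38 without WT replicate 3, -0.45 without KO replicate 3 and -0.52 with 16 signal units added before log2, each below 1.5-fold. The second kept probe set of Suv39h2, 1422979_at, had 6.46, 6.65 and 5.73 in KO and 6.13, 5.84 and 6.69 in WT, with overlapping groups and a difference of 0.06. Setdb2 had 7.80, 7.65 and 7.49 in KO and 7.96, 7.80 and 7.83 in WT. Its highest KO and lowest WT value differ only beyond the second decimal, and its difference was -0.22 (standard error 0.16, adjusted p = 0.729), or -0.14 without KO replicate 3. Setdb1, which methylates H3K9 where Trim28 recruits it, differed by -0.06, Ehmt1, which encodes GLP, by 0.12 and Prdm2 by 0.08.

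**Figure D3:**
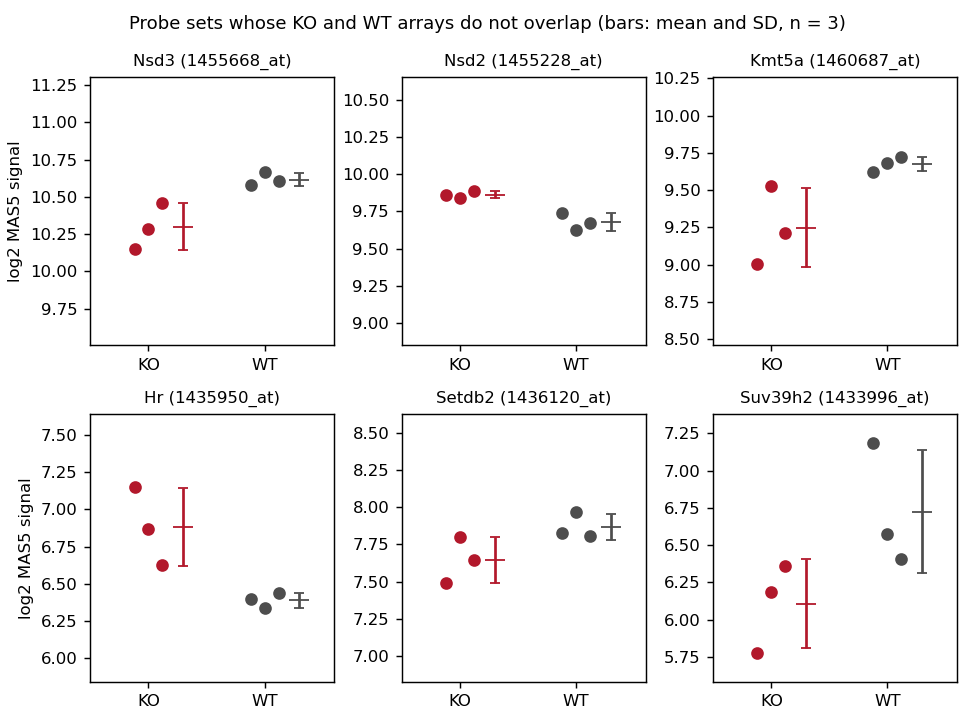
Log2 MAS5 signal (y axis, same span in each panel) of 6 probe sets on the 3 KO and 3 WT arrays, with mean and SD as bars. The 5 genes without overlap on their brightest probe set are shown with the second Kmt5a probe set, and the distance between the groups is smallest for Setdb2.

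The erasers of H3K9 methylation in the KDM3 and KDM4 families had 2 of 7 tested genes higher and 5 lower in KO, with a median difference of -0.07. Hr, the hairless corepressor, which is related to the KDM3 enzymes, had 6.87, 6.63 and 7.15 in KO and 6.34, 6.44 and 6.40 in WT. All KO arrays were above all WT arrays, with a difference of 0.49 (standard error 0.23, 95% interval -0.04 to 1.02, adjusted p = 0.669). The WT signals were dim, not far above the filter levels of 5.73 to 6.05. The second Hr probe set, 1422110_at, had 6.15, 5.89 and 6.33 in KO and 5.84, 6.38 and 6.38 in WT, which overlap, and differed by -0.08. Jmjd1c, a KDM3 family member, had 12.02, 12.12 and 11.64 in KO and 12.10, 12.17 and 12.02 in WT, with KO replicate 3 low and a difference of -0.17 (adjusted p = 0.741), or -0.03 without that array. All 3 kept probe sets of Jmjd1c had a lower mean in KO, from -0.57 to -0.17, and on 1439998_at the KO signals of 7.81, 7.21 and 7.83 lay below the WT signals of 7.95, 8.45 and 8.15 (unadjusted p = 0.0451, adjusted p = 0.782, limma over probe sets). The demethylases Kdm3a and Kdm3b differed by -0.11 and -0.06.

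In the KDM4 family, whose enzymes act on trimethylated H3K9 and H3K36, Kdm4c had 9.40, 9.49 and 8.82 in KO and 9.46, 9.48 and 9.60 in WT. KO replicate 3 alone was far below, and the difference was -0.28 (standard error 0.19, adjusted p = 0.726), or -0.07 without that array. Kdm4b differed by 0.12. The only probe set of Kdm4d was below the filter, with 4.20, 5.06 and 4.60 in KO and 4.25, 5.10 and 4.98 in WT, and was not tested.

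Among the NSD methyltransferases, which dimethylate H3K36, Nsd3 had the smallest unadjusted p of all members. Its brightest probe set had 10.28, 10.46 and 10.15 in KO and 10.66, 10.60 and 10.58 in WT, a mean of 10.30 ± 0.16 in KO and 10.62 ± 0.05 in WT (SD, 3 arrays each). All KO arrays were lower, by -0.32 (standard error 0.12, 95% interval -0.60 to -0.04, adjusted p = 0.638 and unadjusted p = 0.031 in limma), and by -0.24 without KO replicate 3. The unadjusted limma p of Nsd3 depended on the setting. Under other settings with all arrays it ran from 0.0043 with array weights to 0.154 with the mean of the kept probe sets, and was 0.123 with median centring. With 1 array left out it ran from 0.0104 to 0.110. Of the 6 kept probe sets of Nsd3 5 had a lower mean in KO, down to -0.60. The other, 1447931_at, had 9.44, 9.76 and 9.42 in KO and 9.23, 9.39 and 9.26 in WT, all KO arrays higher, with a difference of 0.25.

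Nsd2 had 9.84, 9.89 and 9.86 in KO and 9.62, 9.67 and 9.74 in WT. The KO arrays were close together and above all WT arrays, with a difference of 0.18 (standard error 0.11, adjusted p = 0.692). Of its 5 kept probe sets 2 were higher and 3 lower in KO, and the largest opposite difference was -0.55, on the dim 1428827_at. A bright probe set also went the other way: 1435136_at, with a WT mean of 9.64 against 9.68 for the brightest, differed by -0.17. With the mean of the kept probe sets the difference of Nsd2 was -0.06. Nsd1 differed by 0.15, or -0.02 without KO replicate 3.

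The LSD demethylases, which act on mono- and dimethylated H3K4 through a flavin cofactor rather than a JmjC domain, differed in opposite directions. Kdm1a, the demethylase of the CoREST complex, had 11.26, 11.44 and 11.38 in KO and 11.21, 11.32 and 11.17 in WT, with overlapping groups and a difference of 0.13 (standard error 0.10, 95% interval -0.11 to 0.36, adjusted p = 0.742). Its interval lies within 1.5-fold in both directions. Kdm1b differed by -0.21, with KO replicate 3 at -0.75 from the WT mean and KO replicates 1 and 2 at 0.03 and 0.08.

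The KDM2, KDM5 and KDM6 demethylases, of H3K36, H3K4 and H3K27, had 3 genes higher and 3 lower in KO without Jarid2. Kdm2b, which also brings a Polycomb complex to CG-rich promoters, had 10.21, 10.36 and 9.63 in KO and 10.18, 10.16 and 10.35 in WT, a difference of -0.16 (adjusted p = 0.829), or 0.05 without KO replicate 3. Kdm5a, an eraser of trimethylated H3K4, had 9.75, 9.93 and 9.19 in KO and 9.80, 9.70 and 9.74 in WT, a difference of -0.12 (adjusted p = 0.875), or 0.10 without KO replicate 3. In both genes KO replicate 3 was below all other arrays and KO replicate 2 was above them. Jarid2, a Jumonji protein without demethylase activity that works with Polycomb repressive complex 2, had 9.75, 9.88 and 9.58 in KO and 9.78, 9.79 and 9.90 in WT, a difference of -0.09 (adjusted p = 0.859). Kdm2a, Kdm5b, Kdm6a and Kdm6b differed by 0.03, 0.10, -0.16 and 0.18.

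The 6 other Jumonji proteins, many of which hydroxylate proteins rather than demethylate histones, had 4 higher and 2 lower means in KO, with a median difference of 0.05. Riox2, a ribosomal oxygenase, had 8.82, 8.93 and 8.59 in KO and 8.83, 8.84 and 8.74 in WT, a difference of -0.02 (adjusted p = 0.973) with overlapping groups. Hif1an, the asparaginyl hydroxylase that inhibits hypoxia-inducible factor, differed by 0.02 and Jmjd6, a lysyl hydroxylase, by -0.16. Kdm8, Jmjd4 and Riox1 differed by 0.29, 0.24 and 0.08, and the adjusted p-values of the 6 genes were between 0.732 and 0.982.

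Several members are measured by more than 1 probe set, and these often disagreed. Of the 97 probe sets, 71 passed the filter, 28 with a higher and 43 with a lower mean in KO, and 0 were called (lowest adjusted p = 0.782 in limma over 27408 probe sets, of which 0.0219% were called). An unadjusted p under 0.05 was found for 3 of them (4.23%), the Nsd3, Kmt5a and Jmjd1c probe sets above, and 11 had no overlap between the groups (3 higher, 8 lower; 15.5%), against 15.2% of all probe sets (7.37% higher, 7.83% lower). A difference of at least 1.5-fold was found for 2 of the 71, on Suv39h2 and Nsd3, both lower in KO, against 7.66% of all probe sets in either direction and 3.82% lower. Of 20 members with more than 1 kept probe set, 12 had means on both sides of WT (60%), against 45.9% of 6015 genes. In KO replicate 3, Kdm5a, Kdm5b and Nsd2 each had a probe set over 0.5 above and another over 0.5 below the WT mean, 3 of 20 members (15%) against 7.32% of the genes.

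Kdm5a and Kdm6b, picked after their values were seen, are examples of this spread. For Kdm5a, 1452360_a_at had 7.77, 7.21 and 9.26 in KO and 7.70, 7.99 and 7.91 in WT, so KO replicate 3 was the highest array there and the lowest on the brightest probe set. For Kdm6b, an eraser of H3K27 methylation, 1456610_at had 7.98, 6.16 and 9.76 in KO and 8.11, 7.79 and 7.96 in WT, with means that differed by 0.01. The brightest Kdm6b probe set carries the _x_at ending, by which the maker marks probes that can match other sequences.

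**Figure D4:**
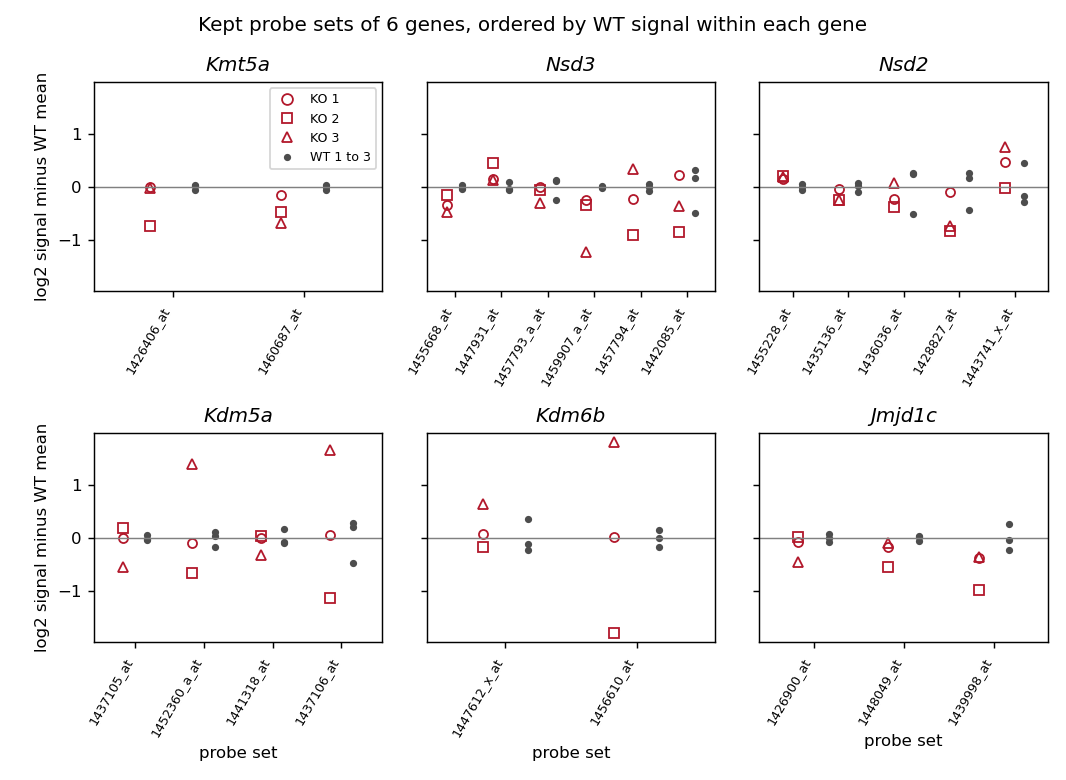
Log2 signal minus the WT mean (y axis) on the 3 KO and 3 WT arrays for each kept probe set (x axis, WT signal falling to the right) of 6 genes. KO replicate 3 is below WT on the brightest Kdm5a probe set and 1.40 and 1.67 above it on 2 others, and KO replicates 2 and 3 lie 1.79 below and 1.81 above WT on 1456610_at of Kdm6b.

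Enzymes of the same mark were also compared within each array, as the difference of 2 log2 signals relative to its WT mean, for 9 pairs. The exact two-sided permutation test of 3 against 3 arrays cannot go below p = 0.1, and none of the pairs can pass. Nsd2 minus Nsd3 was 0.49, 0.36 and 0.65 in KO and -0.11, 0.01 and 0.10 in WT, a difference of 0.50 without overlap (exact permutation p = 0.1, adjusted p = 0.3 over the 9 pairs). That separation was fixed by the values above, where Nsd2 was higher and Nsd3 lower on each KO array. It rests on the brightest probe sets, and some other kept probe sets of both genes differed in the opposite direction. Nsd1 minus Nsd3 was 0.36, 0.07 and 0.98 in KO and 0.04, -0.09 and 0.05 in WT, again without overlap. Kmt5a minus Kmt5c was -0.19, -0.10 and -0.36 in KO and -0.04, 0.07 and -0.03 in WT, a difference of -0.22 without overlap. The groups overlapped for the other 6 pairs. The share of all gene pairs without overlap was not computed, so this count has no background to be read against. Nsd3 is part of more than 1 of the pairs without overlap. Ehmt1 minus Ehmt2 was 0.12, 0.52 and 0.05 in KO and -0.21, 0.11 and 0.10 in WT, and Kdm5b minus Kdm5a was 0.02, -0.52 and 1.18 in KO and -0.01, 0.01 and -0.00 in WT, with KO replicates 2 and 3 on opposite sides.

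The readers and partners of these marks were read from the same fit. Of 82 genes in 7 lists, 73 were tested and 0 were called (lowest adjusted p = 0.586 in limma), and 3 had an unadjusted p under 0.05 (4.11%, against 7.48% of all genes). Of the 9 tested partners of the LSD1 complex 2 had higher and 7 lower means, with a median of -0.24, or -0.05 without KO replicate 3. Zmym2, a zinc finger protein of that complex, had 11.03, 11.09 and 10.39 in KO and 11.22, 11.44 and 11.34 in WT, and Gse1 differed by -0.49. Ezh1, an H3K27 methyltransferase of Polycomb repressive complex 2, had the smallest p of the 7 lists, with 10.11, 9.97 and 9.74 in KO and 10.44, 10.45 and 10.27 in WT. All KO arrays were below all WT arrays for these genes, with differences of -0.50 for Zmym2 and -0.44 for Ezh1. Without KO replicate 3 these were -0.27 and -0.34.

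Apart from Zmym2, Gse1 and Ezh1, no gene of the 7 lists had an unadjusted p under 0.05. The 12 tested readers and partners of H3K9 methylation had a median of -0.09, which turned to 0.04 without KO replicate 3, and Cdyl2, a chromodomain protein, differed by 0.29. The 7 tested readers of H4K20 methylation had a median of -0.02, or 0.10 without KO replicate 3, the 11 genes of Polycomb repressive complex 2 a median of -0.03, the 14 H3K4 methyltransferases and subunits -0.06, or 0.00 without that array, and the 6 other H3K36 genes 0.03, or 0.07 without it. In these lists L3mbtl2, which binds methylated H4K20, differed by 0.22, Setd1a by -0.38 and Smyd2 by 0.22. Epop, from the Polycomb list, had the largest difference of the 7 lists, -1.48 (adjusted p = 0.675 in limma), or -0.50 without KO replicate 3. It had 6.71, 6.87 and 3.85 in KO and 7.29, 7.03 and 7.56 in WT, all KO arrays lower. The 14 tested hypoxia-induced genes had 4 higher and 10 lower means and a median of -0.06, and Ldha, lactate dehydrogenase A, differed by -0.25. Without KO replicate 3, 1 gene of the 7 lists was called, the stress-induced Ddit4, which had 10.22, 9.82 and 11.33 in KO and 10.84, 10.78 and 10.86 in WT (limma, adjusted p = 0.0350 without that array and 0.778 with it), in a fit where 0.411% of all genes were called.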

How the data were processed

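Total RNA of hippocampus was hybridised to Affymetrix arrays, 3 KO and 3 WT. The deposited values are log2 MAS5 signals for each probe set, which the authors scaled to a mean signal of 497.5 to 498.2 on each array after 2% of probe sets were trimmed at each end. MAS5 and affy are credited to the notes the submitters gave on processing, and the methods name GeneSpring and a filter on Absent calls, which was replaced here by a filter on signal. A probe set was kept when it exceeded the 40th percentile of its array on at least 3 of 6 arrays, which left 27408 of 45037. GEO's platform annotation gives 34945 probe sets 1 gene and 932 several, and does not list 9160. A check of the symbols against RefSeq (GRCm38.p6) changed 0 of them. Each of 12903 genes was represented by the kept probe set with the highest mean over the 6 arrays.

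KO minus WT was fitted in limma 3.58.1 (R 4.3.3) with lmFit and eBayes with trend, with Benjamini-Hochberg adjustment over all genes or all kept probe sets. The script was tested on simulated data. Members, lists and tests were chosen with earlier results of these data known. Array values are given for members with an unadjusted p under 0.05, without overlap between the groups, past 1.5-fold or brightest in their family, and at most 3 genes are named from each list of partners. The arrays of Kdm4a, Kdm4d, Kdm6b and Kmt5c are also given. Other normalizations, filters, variance models, gene rules and the removal of each array were tried as alternatives. The number of arrays limits the precision. Promoter sequences came from RefSeq (GRCm38.p6).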

Additional observations from a re-analysis of the deposited data

How the results depend on the processing

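No member gene and no member probe set was called under any alternative tried. Among the 14 members chosen by p, overlap, fold or brightness, the lowest adjusted p was 0.127 in limma. Kdm4a and the other members are not in the counts of sign changes. Of 152 values of the 14 members under other settings 6 changed sign, and of 84 values without 1 array 4 did. The sign changes were Kdm5a (0.0066) and Riox2 (0.0186) with array weights, and Kdm5a (0.0503), Jarid2 (0.0606), Riox2 (0.0338) and Nsd2 (-0.0629) with the mean of the kept probe sets of each gene. Leaving out each array gave -0.41 to 0.19 for Ehmt2, -0.31 to 0.0549 for Kdm2b, -0.27 to 0.10 for Kdm5a and -0.10 to 0.0713 for Riox2, and the sign turned without KO replicate 2 for Ehmt2 and without KO replicate 3 for the other 3 genes. Members without overlap between the groups numbered 5 (14.7%, all genes 16.7%), against 2 with median centring (5.88%, all genes 10.6%) and 3 with a filter at the 60th percentile (10.0%, all genes 17.3%), which removes Hr and Suv39h2. They numbered 4 with quantile normalization (11.8%, all genes 16.7%) and 4 with the mean of probe sets (11.8%, all genes 16.4%). They numbered 6 to 14 with 1 array fewer, where all genes had 21.4% to 35.0%, and the most without KO replicate 2 (41.2%, all genes 35.0%). Members past 1.5-fold numbered 1, against 0 with the filter at the 60th percentile, with 16 signal units added, with array weights or with the mean of probe sets, and 0 to 2 without 1 array (all genes 5.04% to 11.4%). Of all genes 8 were called, against 0 without trend, 115 with array weights, 4 with the replicate number as a block and 0 to 53 without 1 array, the most without KO replicate 3. Partner genes called numbered 0, and 0 to 1 without 1 array. Pairing by replicate number was not seen: correlations of deviations were -0.04, 0.07 and 0.13 for the same number, and KO replicate 1 correlated best with WT replicate 2 (0.20). Deviations within a group of 3 arrays depend on one another, so these correlations cannot exclude pairing by number. The block changed the call of no member. Array weights were estimated gene by gene because the default estimate did not converge. The causes were not tested.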
